A study of Danio rerio with 8 samples.

Results

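The comparison described here is that of somatic cells at 24 hours post fertilisation (hpf) with somatic cells at 7 hpf in the zebrafish embryo. Its members were taken by name from the table of gene counts: the 2 libraries of soma at 24 hpf and the 2 of soma at 7 hpf, 4 of the 8 libraries in all. The other 4 held primordial germ cells (PGCs, the precursors of eggs and sperm) of the same stages. All cells came from embryos of a single transgenic line, kop-EGFP-F-nos3'UTR, in which a fluorescent reporter marks germ cells and whose construct also carries cry-DsRed. PGCs and somatic cells were separated by fluorescence-activated cell sorting, and 2 biologically independent replicates were sequenced per group. No treatment or mutation distinguished the groups. The soma libraries were thus mixtures of somatic lineages of the embryo, at the gastrula stage (7 hpf) and at the pharyngula stage (24 hpf). Whether every lineage was recovered by the sort was not tested. In such mixtures, fewer cells of a type and less RNA per cell cannot be told apart.

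At 7 hpf the zebrafish embryo is gastrulating. Maternal RNA is being cleared, the zygotic genome has recently been activated by Pou5f3, Nanog and SoxB1 factors, and Nodal, Bmp and the dorsal organizer set up the germ layers and body axes. By 24 hpf the same lineages have formed somites with contracting muscle, a regionalised brain with early neurons, a notochord, a beating heart with circulating primitive red cells, and a periderm over the epidermis. Hox genes, which are arranged in clusters, are switched on during gastrulation and segmentation and mark positions along the trunk and tail.

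Levels are given as CPM (expected counts relative to library size) after scaling by trimmed mean of M values (TMM), per library. Changes are given as log2 fold change of 24 against 7 hpf with an approximate standard error. For counts, that error is the size of the log2 fold change divided by the square root of the F statistic of its test. A gene was called higher or lower at a Benjamini-Hochberg adjusted p under 0.05 (edgeR quasi-likelihood test) with a log2 fold change of at least 1.5 in size. The 7 hpf soma libraries held 13533554 and 10425254 expected counts and the 24 hpf libraries 15633974 and 19295377, so that the floor of 3 counts lay between 0.199 and 0.28 CPM. Of 19885 tested genes, 6588 were called (33.1%). More were higher at 24 hpf (4622 genes, 23.2%) than lower (1966 genes, 9.89%), and the median log2 fold change over all tested genes was 0.46 with an SD of 3.51. That median ranged from 0.02 to 0.6 over the scalings tried, and on log2(TPM + 1) 2233 genes rose and 1811 fell. Among the called genes, 1429 had no count in either 7 hpf library and 135 had none in either 24 hpf library. Genes were tested if enough libraries of any group held counts of them. A gene with no count in soma at a stage was thus tested through other libraries, and the direction of its call was fixed by that. Such genes add to the shares of the lists below, and members low in all groups were not tested. For 6576 of the called genes the libraries of the stages did not overlap, which held for 73.6% of all tested genes. Lists of genes for lineages and pathways are read below against these shares of all tested genes. Many symbols of the gene table are written in capitals, and an Ensembl identifier is added where several genes share a symbol.

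The 2 libraries of each stage differed in composition, in a way that touched several of the results. At 24 hpf, the 41 matched genes of sarcomere and muscle metabolism summed to 22173 CPM in replicate 1 and 136791 CPM in replicate 2. A list of endoderm, yolk syncytium and lipoprotein genes went the other way, with 5010 CPM in replicate 1 and 949 CPM in replicate 2. At 7 hpf, replicate 2 had the higher sums for hox genes (125 against 15.9 CPM) and for epidermis and periderm (4627 against 1658 CPM), and replicate 1 for oocyte and maternal transcripts (243 against 163 CPM). Across genes, which are not independent replicates, soma 24 hpf replicate 2 had a Spearman correlation of 0.910 with the other soma library of its stage and of 0.941 and 0.946 with the 2 PGC libraries of 24 hpf. The part of these differences in the calls was not tested beyond leaving out each library in turn. Without soma 24 hpf replicate 1 there were 5662 called genes, and without replicate 2 there were 4662. Without soma 7 hpf replicate 1 or 2, 5580 and 6010 genes were called. A pair of genes of unknown role took much of the 24 hpf counts: zgc:158463 had 1.24% and 1.67% of the counts at 7 hpf and 18.7% and 20.5% at 24 hpf, and si:dkey-153m14.1 had 0.543% and 0.726% and then 9.28% and 10.9%.

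**Figure D1:**
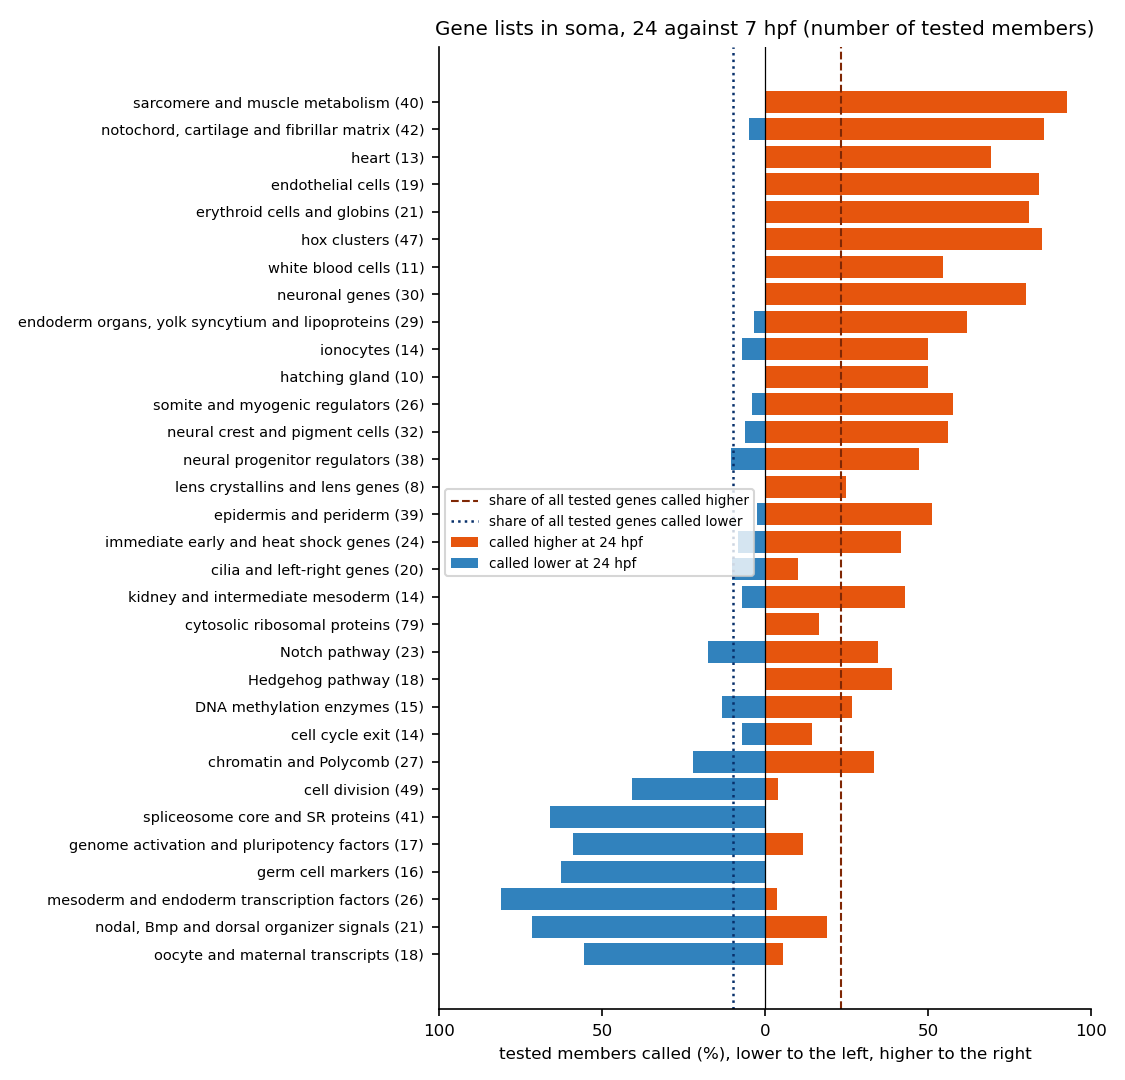
Percentage of the tested members of each gene list called lower (blue, to the left) or higher (orange, to the right) in soma at 24 against 7 hpf, with the number of tested members in parentheses and vertical lines at the shares of all tested genes (9.89% lower, 23.2% higher). Lists of gastrula regulators, splicing factors and cell division lay on the side of falls, and lists of muscle, matrix, vessels, blood, neurons and hox genes on the side of rises.

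Regulators of genome activation and pluripotency were lower at 24 hpf. Of 17 tested genes, 10 fell (58.8%), 2 rose and 5 were not called, and their median log2 fold change was -2.23. pou5f3, the zebrafish homologue of the pluripotency factor Oct4, measured 2024 and 1404 CPM at 7 hpf and 7.68 and 2.2 CPM at 24 hpf, a log2 fold change of -8.43 ± 0.85 (adjusted p = 0.00027). nanog fell from 80.1 and 30.3 CPM to 0 and 1.99 CPM. Both factors were at or below 7.68 CPM in each 24 hpf library, and the stages did not overlap. foxh1, a transcription factor that carries the Nodal signal, went from 196 and 126 CPM to 0.199 and 0.206 CPM (-9.57 ± 0.57, adjusted p = 5.13e-05). The ventral homeobox repressors vox, ved and vent fell by 5.06, 5.82 and 7.89 on the log2 scale. The SoxB1 genes, which stay in use in neural progenitors, changed far less. SOX2 measured 97.7 and 42 CPM at 7 hpf and 50.8 and 37 CPM at 24 hpf and was not called, and SOX3 and sox19b were not called either, with log2 fold changes of -0.81 ± 0.31 and -0.82 ± 0.33. sox19a fell (-1.57 ± 0.29), a call that was lost without soma 24 hpf replicate 2 (-1.42, adjusted p = 0.0281) or 7 hpf replicate 1 (-1.25, adjusted p = 0.0187). The 2 rises were the MYC paralogues ENSDARG00000045695 (0.674 and 2.24 CPM to 60.1 and 47.8 CPM) and ENSDARG00000007241 (18.1 and 4.75 CPM to 84.3 and 99 CPM), growth regulators that were highest in both 24 hpf libraries.

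Transcripts laid down in the oocyte fell in most of the list. Of 18 tested, 10 fell (55.6%) and 1 rose, with a median log2 fold change of -4.72, or of -3.3 with genes at 0 set to the bound of the floor. npm2b, an egg nucleoplasmin, measured 69.7 and 50 CPM at 7 hpf and 3.91 and 1.24 CPM at 24 hpf (-4.54 ± 0.54, adjusted p = 0.000494). EIF4E1B, an oocyte cap-binding protein, went from 15.6 and 7.27 CPM to 0 in both libraries, at least 56.6-fold lower, and buc, the organiser of germ plasm in the oocyte, from 6.96 and 3.45 CPM to 0, at least 25.7-fold lower. In each of these the 7 hpf replicate 1 held more than replicate 2. gdf3, the maternal partner of Nodal, fell from 35 and 9.5 CPM to 0.331 and 0.412 CPM. The GRIP2 paralogue ENSDARG00000087187 was the single rise (2.62 ± 0.42).

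Signals of the gastrula axes fell together. Among 21 tested Nodal, Bmp and organizer genes, 15 were lower (71.4%) and 4 higher at 24 hpf, with a median of -3.76. chrd, the Bmp antagonist secreted by the organizer, had 577 and 618 CPM at 7 hpf and 2.91 and 5.28 CPM at 24 hpf (-7.19 ± 0.52, adjusted p = 8.5e-05). szl, an inhibitor of the protease that cleaves Chordin, went from 53 and 34.9 CPM to 0 in both libraries, at least 217-fold lower. The Nodal ligand ndr2 went from 26 and 21.5 CPM to 0, at least 117-fold lower. On the receptor side, the Nodal co-receptor tdgf1 fell from 108 and 91.9 CPM to 3.84 and 5.08 CPM, and the Nodal antagonists lft1 and lft2 fell by 3.83 and 4.28 on the log2 scale. The Bmp ligands bmp7a (-5.99 ± 0.59), BMP2 ENSDARG00000041430 (-3.42 ± 0.39) and BMP4 (-1.85 ± 0.34) fell to different degrees. BMP4, which acts again in organ formation, still measured 23.2 and 14.6 CPM at 24 hpf. Of the 4 rises, the follistatin paralogue FST ENSDARG00000057992 was at 0 at 7 hpf and at 4.5 and 24.3 CPM at 24 hpf, at least 57.1-fold higher. The other 3 (BMP2 ENSDARG00000013409, BAMBI ENSDARG00000099677 and FST ENSDARG00000052846) each lost their call without at least 1 soma library (adjusted p = 0.114, 0.0824 and 0.17 as the largest values). ndr1 was at or below 0.0748 CPM in every soma library, under the floor.

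Transcription factors of mesoderm and endoderm had the highest share of falls of any list: 21 of 26 tested (80.8%), against 1 rise, with a median of -3.45. tbx16, a T-box factor of the paraxial mesoderm, measured 532 and 288 CPM at 7 hpf and 11 and 4.39 CPM at 24 hpf (-5.73 ± 0.67, adjusted p = 0.000451). tbxta, the zebrafish Brachyury of notochord and tailbud, fell less, from 468 and 239 CPM to 35.8 and 33.1 CPM (-3.36 ± 0.36, adjusted p = 0.000345). mixl1 was at 19.2 and 3.35 CPM and then at 0, at least 55.8-fold lower, and the endoderm determinant sox32 fell from 38.2 and 24.3 CPM to 0 and 0.0686 CPM. SOX17, which acts downstream of sox32, fell from 22 and 20.1 CPM to 0.463 and 0 CPM. GSC, the organizer homeobox gene, went from 20.3 and 23.9 CPM to 0 and 0.137 CPM. The rise was FOXA1, a pioneer factor of gut endoderm (0.524 and 0.186 CPM to 16 and 11.6 CPM), while its relatives foxa3 and FOXA2 fell. The FOXA2 call was lost without soma 24 hpf replicate 2 (adjusted p = 0.0834) or 7 hpf replicate 1 (adjusted p = 0.0505).

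Genes of the presomitic mesoderm were still detected at 24 hpf, and those named here were higher in replicate 1. tbx6 measured 58.3 CPM in replicate 1 and 18.3 CPM in replicate 2, msgn1 12.9 and 2.88 CPM, and the segmentation clock gene her1 7.02 and 0.823 CPM. In the whole list of mesoderm and endoderm factors, 8 of 26 genes were at least 2-fold higher in replicate 1 than in replicate 2 at 24 hpf and 1 was at least 2-fold lower, against 8.25% and 12.5% of all tested genes. tbx6 was not called between the stages (-0.89 ± 0.86), with 37.9 and 104 CPM at 7 hpf. The call of msgn1 (-3.54 ± 1.08) was lost without soma 24 hpf replicate 2 (adjusted p = 0.107), 7 hpf replicate 1 (adjusted p = 0.0501) or 7 hpf replicate 2 (adjusted p = 0.0562).

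**Figure D2:**
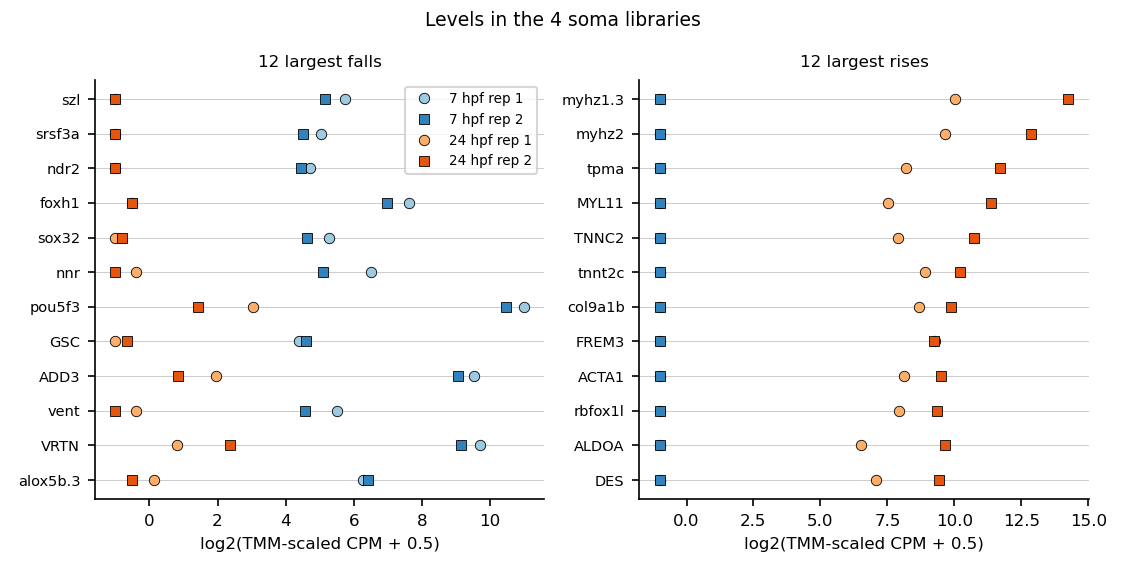
Level, as log2(TMM-scaled CPM + 0.5), of the 12 called genes with the largest falls (left) and the 12 with the largest rises (right) in each of the 4 soma libraries, where -1 is no count. Genes were chosen among those whose stages did not overlap, so the separation of the stages follows from the choice. The 12 genes on the right had no count in either 7 hpf library, which ranking by fold change favours. Most of these 12 were higher in 24 hpf replicate 2 than in replicate 1.

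The largest falls among genes with at least 20 CPM held further gastrula genes. VRTN, a vertebral patterning gene in mammals, went from 832 and 563 CPM to 1.26 and 4.67 CPM (-7.88 ± 0.86, adjusted p = 0.000365), and the adducin paralogue ADD3 ENSDARG00000056250 from 742 and 529 CPM to 3.38 and 1.3 CPM (-8.08 ± 0.61, adjusted p = 9.8e-05). nnr and alox5b.3 fell by 8.76 and 7.62 on the log2 scale. srsf3a, listed at 32.3 and 22.2 CPM and then at 0, had fractional counts, so its reads are shared with related genes and its level is uncertain. Its call was lost without either 24 hpf library (adjusted p = 0.0529 and 0.0578).

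The core of the spliceosome and the SR splicing factors fell as a group. Of 41 tested genes, 27 were lower (65.9%) and 0 higher, with a median of -1.72. The median lay between -1.97 and -1.59 under every scaling tried. SF3B1, the subunit that binds the branch site, measured 1161 and 903 CPM at 7 hpf and 314 and 300 CPM at 24 hpf (-1.75 ± 0.23, adjusted p = 0.000711). SNRPA, the U1 A protein, went from 271 and 210 CPM to 41.6 and 37.8 CPM (-2.6 ± 0.27, adjusted p = 0.000298). The other 14, SRSF5 and srsf5a among them, were not called, with 130 and 91.3 against 110 and 103 CPM for SRSF5. Per length, other RNA-binding proteins were among the transcripts with the most TPM at 7 hpf among named genes of at least 500 bases. hnrnpa0l had 2164 and 1127 TPM at 7 hpf and 299 and 194 TPM at 24 hpf (-2.54 ± 0.27 in counts), and khdrbs1a 1982 and 1243 TPM and then 605 and 343 TPM. hmga1a, a chromatin protein, had 2387 and 1790 TPM and then 680 and 478 TPM. Ranks over all genes were not used, since very short RNA genes held the first places in TPM.

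Cell division genes were lower at 24 hpf in part of the list. Of 49 tested genes, 20 fell (40.8%) and 2 rose, with a median of -1.33, and their summed level went from 17667 and 15824 CPM to 7033 and 6331 CPM. Factors that license replication origins were among the falls. CDT1 measured 558 and 311 CPM and then 50.6 and 44.9 CPM (-3.19 ± 0.32, adjusted p = 0.000275), and CDC6 402 and 243 CPM and then 36.6 and 41.9 CPM. CCNE1, cyclin E1, fell from 248 and 134 CPM to 14.1 and 11.3 CPM (-3.91 ± 0.42, adjusted p = 0.000333). By contrast MCM2, a helicase subunit loaded by these factors, had 474 and 316 CPM at 7 hpf and 415 and 384 CPM at 24 hpf (0.02 ± 0.29), and its stages overlapped. The 2 MCM6 genes differed. ENSDARG00000033231 fell from 127 and 46.2 CPM to 0.596 and 0.755 CPM (-6.99 ± 0.61, adjusted p = 0.000144), and ENSDARG00000057683 had 689 and 702 CPM and then 390 and 341 CPM (-0.93 ± 0.25) and was not called. Both rises were paralogues of CCND2, cyclin D2, of which ENSDARG00000051748 went from 0.973 and 1.3 CPM to 14.2 CPM in both libraries. CCND1 fell (-1.89 ± 0.3). Among 14 tested genes of cell cycle exit, 2 rose and 1 fell, with a median of -0.3, and the cyclin kinase inhibitor cdkn1a measured between 1.05 and 3.64 CPM in all libraries.

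Ribosomal proteins were mostly not called. Of 79 tested, 13 were called higher (16.5%, below the 23.2% of all tested genes) and 0 lower, and the median was 1.26, just under the fold-change threshold. Under the scalings tried this median ranged from 1.01 to 1.39. RPS2 measured 350 and 466 CPM at 7 hpf and 1244 and 1473 CPM at 24 hpf (1.74 ± 0.27, adjusted p = 0.00149). The count of called genes was 8 without soma 24 hpf replicate 2 and 22 without 7 hpf replicate 2.

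Of 27 chromatin and Polycomb regulators tested, 9 rose (33.3%) and 6 fell (22.2%). The Polycomb methyltransferase EZH2 fell from 315 CPM in both 7 hpf libraries to 98.3 and 89.8 CPM (-1.74 ± 0.25, adjusted p = 0.00115), and its relative ezh1 was not called (0.43 ± 0.45). The Polycomb reader cbx2 fell from 210 and 167 CPM to 40.9 and 29.3 CPM (-2.43 ± 0.27). Both BMI1 paralogues rose (2.94 ± 0.63 and 2.49 ± 0.42). CHD7, a chromatin remodeller needed in neural crest, had 5986 and 5604 CPM at 7 hpf and 1591 and 1412 CPM at 24 hpf (-1.95 ± 0.23, adjusted p = 0.000466). The ATPase smarca2 rose (2.65 ± 0.29). Its relative SMARCA4 ENSDARG00000077226 went from 2960 and 2956 CPM to 1434 and 1195 CPM without passing the fold threshold (-1.17 ± 0.24).

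Among enzymes of DNA methylation, all 3 Tet dioxygenases, which oxidise 5-methylcytosine, rose. TET2 had no count at 7 hpf and 116 and 139 CPM at 24 hpf, at least 504-fold higher. tet3 went from 0.299 and 0 CPM to 129 and 118 CPM (9.49 ± 0.65, adjusted p = 6.97e-05), and TET1 from 1.72 and 2.98 CPM to 45.1 and 37.6 CPM (4.14 ± 0.4, adjusted p = 0.00024). The 7 and 24 hpf libraries were far apart for each of them. The de novo methyltransferase dnmt3bb.2 fell from 773 and 899 CPM to 106 and 88.2 CPM (-3.1 ± 0.25, adjusted p = 0.000117), while its relatives dnmt3ba (-0.92 ± 0.22) and dnmt3bb.3 (-1.16 ± 0.3) were not called. Both genes of TDG, a glycosylase that removes oxidised methylcytosine, were not called either (-0.35 ± 0.24 and -1.38 ± 0.33). DNMT1, the maintenance enzyme, measured 221 and 258 CPM and then 269 and 235 CPM (0.07 ± 0.28) and overlapped between the stages, while its partner UHRF1 went from 1009 and 832 CPM to 355 and 352 CPM, under the fold threshold (-1.38 ± 0.3, adjusted p = 0.00698). Over the list, 4 of 15 tested genes rose (26.7%) and 2 fell (13.3%), near the shares of all tested genes, with a median of -0.17.

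Notch pathway genes moved both ways. Of 23 tested, 8 rose (34.8%) and 4 fell (17.4%), and the summed level of the list was 3003 and 2569 CPM at 7 hpf and 2472 and 2380 CPM at 24 hpf. Among the receptors, the NOTCH1 paralogue ENSDARG00000052094 rose from 6.81 and 11.8 CPM to 553 and 563 CPM (5.91 ± 0.38, adjusted p = 6.2e-05). The other paralogue, ENSDARG00000103554, went from 1236 and 884 CPM to 424 and 422 CPM and did not pass the fold threshold (-1.33 ± 0.24, adjusted p = 0.00286). NOTCH3 was level, with 558 and 423 CPM and then 463 and 481 CPM. The Jagged ligands jag1a, jag1b, jag2a and jag2b all rose, with log2 fold changes of 2.16 to 7.53. Of the Delta ligands, dlb, which is made by new neurons, rose from 2.54 and 1.21 CPM to 55.6 and 62.2 CPM, and dlc, which is used in somites, fell from 199 and 180 CPM to 56.5 and 36.6 CPM. The targets her1 and her7, the oscillators of the segmentation clock, fell by 4.03 and 4.46 on the log2 scale. The target her4.2, of neural progenitors, rose (5.04 ± 1.09), but it had fractional counts, so its level is uncertain. Its relative her4.1, also with fractional counts, was not called (2.04 ± 1.42).

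In the Hedgehog pathway, 7 of 18 tested genes rose (38.9%) and 0 fell. The ligand SHH ENSDARG00000068567 measured 20.7 and 21.1 CPM at 7 hpf and 65.7 and 70.5 CPM at 24 hpf, a call (1.71 ± 0.54) that was lost without each of the 4 soma libraries in turn (adjusted p between 0.0729 and 0.0996). The receptor and target gene PTCH1 rose from 24.8 and 24.2 CPM to 142 and 143 CPM (2.54 ± 0.24, adjusted p = 0.000203), and the co-receptor CDON from 20.7 and 28.5 CPM to 146 and 177 CPM. The effector GLI3 rose from 0 and 1.12 CPM to 49.9 and 45.2 CPM (6.47 ± 0.96, adjusted p = 0.00123). GLI1, GLI2, SUFU and the transducer SMO were not called. Without soma 7 hpf replicate 1 the count of rises was 4.

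Neural lists held more rises than falls. Of 38 neural progenitor regulators tested, 18 rose (47.4%) and 4 fell, with a median of 3.52, and their summed level did not rise (1379 and 1263 CPM, then 1016 and 887 CPM). The midbrain and hindbrain boundary gene EN2 ENSDARG00000038868 was at 0 in both 7 hpf libraries and at 29.3 and 22.2 CPM at 24 hpf, at least 102-fold higher. GFAP, of radial glia, went from 0 and 0.652 CPM to 101 and 187 CPM (8.87 ± 0.87, adjusted p = 0.000358). The falls were early neural plate factors: both ZIC2 paralogues, GBX1 and OTX2. ZIC2 ENSDARG00000037178 went from 899 and 592 CPM to 97.4 and 58.9 CPM (-3.25 ± 0.45, adjusted p = 0.000913). OTX2 lost its call without 3 of the soma libraries (adjusted p between 0.0824 and 0.144). The 2 PAX6 genes differed at 7 hpf, where ENSDARG00000103379 had no count and ENSDARG00000045936 had 10.7 and 23.5 CPM.

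Of 30 tested genes of differentiated neurons, 24 rose (80%) and 0 fell, with a median of 5.48. NEUROD1, a factor of neuronal differentiation, went from 0 to 21.8 and 29.1 CPM, at least 101-fold higher, and the RNA-binding protein ELAVL3 from 1.2 and 8.39 CPM to 179 and 238 CPM (5.46 ± 0.75, adjusted p = 0.000918). At 24 hpf, 10 of the 30 were at least 2-fold higher in replicate 2 and 0 at least 2-fold lower.

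Neural crest and pigment genes rose in 18 of 32 tested (56.2%) and fell in 2. gch2, an enzyme of pteridine pigment synthesis, went from 0.0748 and 0 CPM to 96.5 and 152 CPM (11.28 ± 0.68, adjusted p = 7.07e-05), and the crest factor SOX10 from 0.0748 and 0.28 CPM to 29.5 and 23.3 CPM (7.22 ± 0.69, adjusted p = 0.000333). The melanin genes DCT, TYR and both TYRP1 paralogues were higher in 24 hpf replicate 2. DCT measured 7.48 and 32.5 CPM there, from 0 at 7 hpf. crestin, a marker of migrating crest in zebrafish, was higher in replicate 1 (118 and 53.9 CPM). TFAP2A and TFAP2C, which act in the crest and in the early ectoderm, were the falls (-2 ± 0.31 and -2.16 ± 0.28).

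Hox genes rose nearly throughout. Of 47 tested genes, 40 rose (85.1%) and 0 fell. Of the 47, 20 had no count in either 7 hpf library and could be called only higher. The median log2 fold change was 6.41, or 4.83 with those at 0 set to the bound of the floor. It was 7.96 without soma 7 hpf replicate 1, 9.44 without 7 hpf replicate 2 and 2.28 on log2(TPM + 1). By paralogue group, a split made after the values were seen, all 22 genes of groups 9 to 13 rose, and 14 of them had no count at 7 hpf. Of 13 genes of groups 1 to 4, 10 rose and 6 had no count at 7 hpf. Of 12 genes of groups 5 to 8, 8 rose, and each had a count in at least 1 of the 7 hpf libraries. Among the largest changes were those of HOXA3 (0 and then 42 and 44.9 CPM, at least 172-fold higher) and hoxc1a (0 and then 23.4 and 39.7 CPM, at least 125-fold higher). HOXC10 went from 0.0748 and 0 CPM to 30.4 and 35 CPM.

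hoxb1b, a gene of the early hindbrain that is expressed already in the gastrula, stood apart from the rest. It had 10.6 and 63.6 CPM at 7 hpf and 14 and 19.1 CPM at 24 hpf and was not called (-1.16 ± 0.68). The 2 gastrula libraries differed for many hox genes, in that 19 of 47 were at least 2-fold higher in replicate 2 and 0 in replicate 1. Over all tested genes these shares were 10.9% and 13.9%. HOXB9 had 0 and 3.45 CPM, HOXB8 0 and 2.42 CPM, and HOXC8 1.35 and 13 CPM. HOXC8 was not called (2.22 ± 0.81, adjusted p = 0.0531). Without soma 7 hpf replicate 1, 33 hox genes rose and 1 fell, and without 7 hpf replicate 2, 41 rose. At 24 hpf most genes of groups 12 and 13 were higher in replicate 1, such as hoxa13a (19.5 and 6.31 CPM) and HOXC12 ENSDARG00000070352 (20.4 and 5.76 CPM), whereas HOXB8 was higher in replicate 2 (17.4 and 59.9 CPM).

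**Figure D3:**
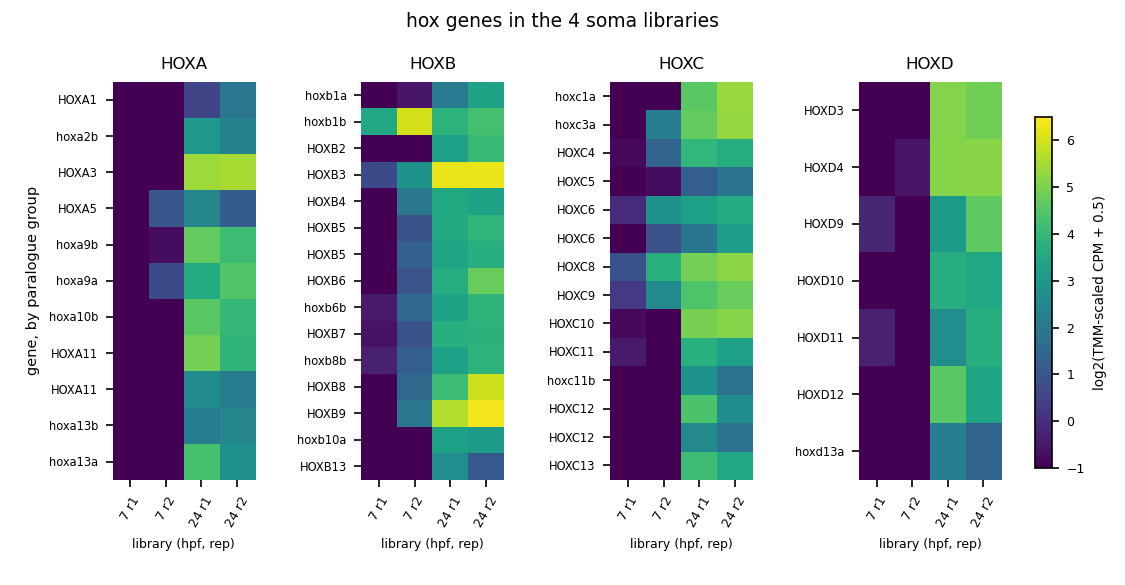
Level of the 47 hox genes, as log2(TMM-scaled CPM + 0.5), in the 2 soma libraries of 7 hpf (7 r1, 7 r2) and the 2 of 24 hpf (24 r1, 24 r2), with 1 panel per cluster letter and genes ordered by paralogue group from top to bottom. The darkest colour is no count. At 7 hpf most genes of groups 3 to 9 were higher in replicate 2, many of them at or near 0 in replicate 1. HOXA3 and HOXD3 had no count in either library, and HOXD9 was higher in replicate 1 (0.374 and 0 CPM). The genes of groups 10 to 13 were at or near 0 in both.

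Most of the largest rises were those of muscle genes. Of 40 tested genes of sarcomere and muscle metabolism, 37 were higher (92.5%) and 0 lower, with a median log2 fold change of 11.36, or 9.05 with genes at 0 set to the bound. All 12 of the largest rises among genes of at least 20 CPM were at 0 in both 7 hpf libraries. The fast myosin heavy chain myhz1.3 was at 0 and then at 1042 and 19472 CPM, at least 40702-fold higher. tpma, skeletal tropomyosin, was at 0 and then at 296 and 3312 CPM, at least 7157-fold higher, and TNNC2, fast troponin C, at 236 and 1691 CPM, at least 3822-fold higher. Each was several times higher in replicate 2. Lack of overlap between the stages was a condition for the largest rises and falls. Fold changes of the myhz genes carry a further limit, since they are neighbours in sequence and had fractional counts.

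Muscle genes named here for the gap between the 24 hpf libraries were chosen by that gap, so their values are a description. pvalb1 and pvalb2, the parvalbumins that buffer calcium, measured 0.861 and 1.26 CPM in replicate 1 and 290 and 330 CPM in replicate 2. The fast myosins myhz1.1 (119 and 10937 CPM) and myhz1.2 (34 and 3133 CPM), the fast troponin I TNNI2 ENSDARG00000029069 (3.57 and 544 CPM) and the troponin T TNNT3 ENSDARG00000068457 (7.15 and 894 CPM) also stood far apart. The slow myosin smyhc1, of the first fibres to form, had 3413 and 6484 CPM. Of the 40 tested genes, 37 were at least 2-fold higher in replicate 2 and 0 at least 2-fold lower. Without replicate 2, 35 genes were called higher with a median of 7.96, and without replicate 1, 38 with a median of 11.97. TNNT3 ENSDARG00000068457 lost its call without 24 hpf replicate 2 (1.04, adjusted p = 0.258) or 7 hpf replicate 1 (adjusted p = 0.0722), and pvalb1 and pvalb2 lost theirs without either 7 hpf library (adjusted p between 0.0522 and 0.0649).

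Regulators of the myogenic programme did not share a single direction between the replicates. MYOG, myogenin, was at 0 at 7 hpf and at 65.7 CPM in replicate 1 and 27 CPM in replicate 2 at 24 hpf, at least 184-fold higher than at 7 hpf. MYOD1 rose from 0.973 and 5.22 CPM to 42.5 and 47.8 CPM (3.88 ± 0.68, adjusted p = 0.00253), and MEOX1, a somite factor, from 1.27 and 3.35 CPM to 44.7 and 22.1 CPM. MYF5 was not called, with 4.79 and 11.3 CPM and then 10.9 and 3.84 CPM. Factors of later muscle differentiation, SMYD1 ENSDARG00000009280 (4.5 and 62 CPM, from 0) and MEF2C ENSDARG00000029764 (176 and 319 CPM, from 2.1 and 0.28), were higher in replicate 2. hsp90aa1.1, the chaperone of myosin folding in zebrafish somites, rose from 0.973 and 0 CPM to 958 and 2267 CPM (11.57 ± 1.32, adjusted p = 0.000419). In all, 15 of 26 regulators rose (57.7%) and 1 fell, FGF8 ENSDARG00000003399, whose call was lost without 3 of the soma libraries (adjusted p between 0.0558 and 0.202).

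**Figure D4:**
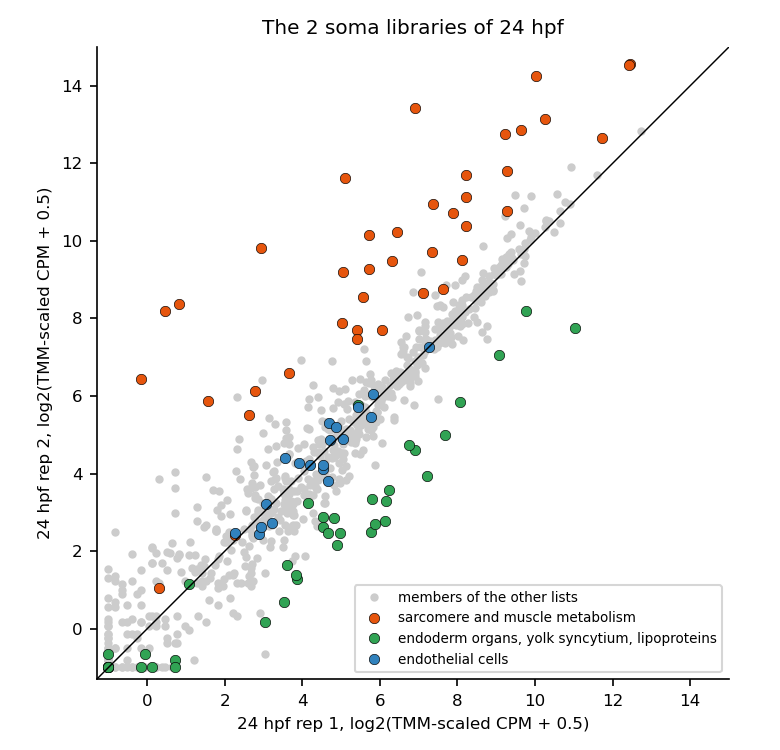
Level of list members, as log2(TMM-scaled CPM + 0.5), in soma 24 hpf replicate 1 (horizontal) and replicate 2 (vertical), with the line of equal level. Genes of sarcomere and muscle metabolism (orange) lay above the line, most genes of endoderm organs, yolk syncytium and lipoproteins (green, 26 of 29 tested at least 2-fold higher in replicate 1) below it, and endothelial genes (blue) along it.

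dmd, the dystrophin gene of the muscle membrane, changed in its effective length. Effective length is the mean length of a gene's transcripts, weighted by their abundance, less the fragment length, and it moves when isoforms of different length are used. For dmd it was 1144 and 1171 bases in the 7 hpf libraries and 5113 and 6317 bases at 24 hpf, a log2 change of 2.3 ± 0.114 (limma, adjusted p = 0.0175). The same values in PGCs were 1234 and 1155 bases and then 6800 and 7447 bases. The length bears on the level of the gene. Its counts rose from 83.4 and 76.2 CPM to 183 and 621 CPM (2.33 ± 0.51, adjusted p = 0.007), and with effective length as an offset the change was -0.07 (adjusted p = 0.915). Its mean TPM was 38.8 at 7 hpf and 30.7 at 24 hpf. Without soma 24 hpf replicate 2 the change in counts was 1.2 (adjusted p = 0.0347), under the fold threshold.

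Over all genes, 3 of 5866 tested lengths were called (0.0511%), and 579 passed an unadjusted p under 0.05, of which 222 were longer at 24 hpf. The other 2 were shorter at 24 hpf: xpr1b, a phosphate exporter, with 3427 bases in both 7 hpf libraries and 2745 and 2737 bases at 24 hpf, and UCHL3, a ubiquitin hydrolase, with 948 bases and then 790 and 786 bases. In PGCs at 24 hpf xpr1b had 3365 and 3427 bases and UCHL3 948 bases in both libraries, and the difference between soma and PGCs was not tested. Neither gene was called for expression. The number of calls was 0 without any 1 of the PGC libraries and in the 4 soma libraries alone, and 62, 37, 18 and 21 without soma 7 hpf replicate 1, 7 hpf replicate 2, 24 hpf replicate 1 and 24 hpf replicate 2, fits that each held the 3 genes.

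Genes of vessels and red cells rose in most of their lists. Of 19 tested endothelial genes, 16 rose (84.2%) and 0 fell, and their summed level was 24 and 25.6 CPM at 7 hpf and 566 and 584 CPM at 24 hpf. cdh5, VE-cadherin, went from 0.15 and 0 CPM to 56.2 and 65.3 CPM (9.38 ± 1.04, adjusted p = 0.000372), and the VEGF receptor kdrl from 0.225 and 0.839 CPM to 54.1 and 43.3 CPM (6.54 ± 0.58, adjusted p = 0.000152). stab2, a scavenger receptor of veins, went from 1.2 and 1.96 CPM to 152 and 153 CPM. No member of this list differed by 2-fold or more between the 24 hpf replicates.

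Among erythroid genes, 17 of 21 tested rose (81%) and 0 fell, with a median of 6.45. Fewer were called higher in each fit that left out a soma library, with medians of 6.41 to 8.21. The embryonic globins hbae1.2 and hbae3 had no count at 7 hpf and 219 and 178 CPM and 137 and 132 CPM at 24 hpf, at least 787-fold and 533-fold higher. The erythroid master regulator gata1a went from 0 and 0.0932 CPM to 13 and 9.2 CPM, and the haem enzyme alas2 from 1.12 and 0 CPM to 54 and 41 CPM (6.31 ± 1.05, adjusted p = 0.00197). Of white blood cell genes, 6 of 11 tested rose, but 2 without either 24 hpf library and 3 without either 7 hpf library. SPI1, the myeloid factor Pu.1, was at 0 and then at 23.2 and 8.99 CPM, at least 63.9-fold higher, and lyz, lysozyme, was at 1.92 and 2.4 CPM at 24 hpf. Heart genes rose in 9 of 13 tested (69.2%), with a median of 7.38. Fewer were called without 24 hpf replicate 1 or 2, with medians of 7.62 and 6.97. myh6, atrial myosin, was at 0 and then at 27.5 and 12.6 CPM, at least 79.6-fold higher, and nppa was at or below 0.132 CPM in every library, under the floor.

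Extracellular matrix of notochord, cartilage and connective tissue rose in 36 of 42 tested genes (85.7%) and fell in 2, with a median of 7.72, or 6.48 with genes at 0 set to the bound. col9a1b was at 0 and then at 406 and 938 CPM, at least 2667-fold higher. The type I collagen col1a1a went from 1.2 and 1.3 CPM to 1514 and 2388 CPM (10.6 ± 0.57, adjusted p = 4.72e-05), and the type II collagen COL2A1 ENSDARG00000069093, of notochord and cartilage, from 1.12 and 3.54 CPM to 1933 and 3852 CPM (10.3 ± 0.73, adjusted p = 7.59e-05). At 24 hpf, 16 of 42 were at least 2-fold higher in replicate 2 and 1 in replicate 1. LAMA1, laminin alpha 1, a basement membrane protein, fell from 1191 and 1532 CPM to 364 and 238 CPM (-2.18 ± 0.31, adjusted p = 0.00106), and lamc1 was level, with 498 and 586 CPM and then 488 and 566 CPM. The fibronectin paralogues moved in opposite directions, FN1 ENSDARG00000006526 up (1.53 ± 0.49) and ENSDARG00000019815 down (-1.69 ± 0.34). The first call was lost without soma 24 hpf replicate 1 (0.7, adjusted p = 0.289) or 7 hpf replicate 1 (1.17, adjusted p = 0.155), and the second without 7 hpf replicate 2 (-1.3, under the fold threshold).

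Epidermis and periderm rose in 20 of 39 tested genes (51.3%) and fell in 1. The keratin krt4 went from 209 and 696 CPM to 6762 and 7254 CPM (3.95 ± 0.66, adjusted p = 0.00207), and cyt1l from 17.4 and 84.1 CPM to 1906 and 1973 CPM, with fractional counts. krt18b was at 0 and then at 41.4 and 44.8 CPM, at least 171-fold higher. krt8 measured 347 and 1299 CPM at 7 hpf and 1224 and 1320 CPM at 24 hpf (0.63 ± 0.56). The claudin cldni was at 0 and then at 69.6 and 85.4 CPM, at least 308-fold higher. TP63, the regulator of basal keratinocytes, was not called (0.53 ± 0.45). At 7 hpf, 23 of 39 genes were at least 2-fold higher in replicate 2 and 4 at least 2-fold lower. Over all tested genes these shares were 10.9% and 13.9%. Without 7 hpf replicate 2, 27 genes rose and 0 fell. The fall was DLX3, an early ectodermal homeobox gene (54.9 and 159 CPM, then 30.5 and 22.9 CPM), whose call was lost without soma 24 hpf replicate 2 (adjusted p = 0.096) or 7 hpf replicate 2 (adjusted p = 0.163).

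Among ionocyte genes, 7 of 14 tested rose and 1 fell. Fewer rose in each fit that left out a soma library, with median log2 fold changes of 2.17 to 5.27. The largest of the rises, SLC4A1 ENSDARG00000012881, was also counted in the erythroid list. Each list named a different paralogue of SLC4A1, but matching without the paralogue suffix placed both genes in both lists. Which gene each list meant cannot be told from the symbol, so this rise may not belong to ionocytes. ENSDARG00000012881 was at 0 at 7 hpf and at 81.4 and 43.1 CPM at 24 hpf, at least 247-fold higher. The other gene of that symbol, ENSDARG00000024560, was not called (1.98 ± 1.22). foxi1, which specifies otic placode and early non-neural ectoderm, fell from 173 and 191 CPM to 2.38 and 1.85 CPM (-6.42 ± 0.34, adjusted p = 4.72e-05), while the carbonic anhydrase ca2 was at 0 and then at 17.5 and 35.3 CPM, at least 105-fold higher. In the hatching gland, 5 of 10 tested rose. he1.2, a hatching enzyme, was at 0 and then at 103 and 129 CPM, at least 461-fold higher, and the protease ctslb went from 0 and 1.21 CPM to 103 and 110 CPM. Its regulators klf17 and PRDM1 were not called, and PRDM1 had 36 and 170 CPM at 7 hpf. Of 32 matched lens genes 8 passed the count filter, and 2 rose, MAF ENSDARG00000015890 and crybb1l1, both with a call that was lost without soma 7 hpf replicate 1 (adjusted p = 0.0548 and 0.0775). That of crybb1l1 was also lost without 24 hpf replicate 1 (adjusted p = 0.136) or 7 hpf replicate 2 (adjusted p = 0.0685), and the median of the list turned sign under some scalings.

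Endoderm, yolk syncytium and lipoprotein genes rose in 18 of 29 tested (62.1%) and fell in 1, and were the list in which 24 hpf replicate 1 stood highest. apobb.1, an apolipoprotein B, measured 7.63 and 27.8 CPM at 7 hpf and 2094 and 215 CPM at 24 hpf (6.03 ± 1.27, adjusted p = 0.00578). apoa2 went from 0 and 1.03 CPM to 120 and 23.7 CPM, and fga, a fibrinogen chain of the liver, from 0 to 22.8 and 6.86 CPM, at least 58.9-fold higher. The stages stayed apart for each of them despite the gap. Of the 29 genes, 26 were at least 2-fold higher in replicate 1 and 0 in replicate 2. Without replicate 1, 14 rose and 3 fell with a median of 2.75, and without replicate 2, 21 rose and 1 fell with a median of 5.23. The call of apoa1b (3.48 ± 0.96) was lost without 24 hpf replicate 1 (2.08, adjusted p = 0.0934) or 7 hpf replicate 1 (2.81, adjusted p = 0.0861). apoeb, an apolipoprotein E of the yolk syncytial layer and epidermis, fell from 2955 and 3117 CPM to 866 and 294 CPM (-2.39 ± 0.46, adjusted p = 0.0039). PROX1, a liver and lymphatic factor, differed from the others in that its 24 hpf libraries were close (42.6 and 53.9 CPM). The liver gene fabp10a was at 0.463 and 0.137 CPM at 24 hpf, and no count of ahsg1 above 0.137 CPM was seen, so that later liver genes lay near the floor.

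**Figure D5:**
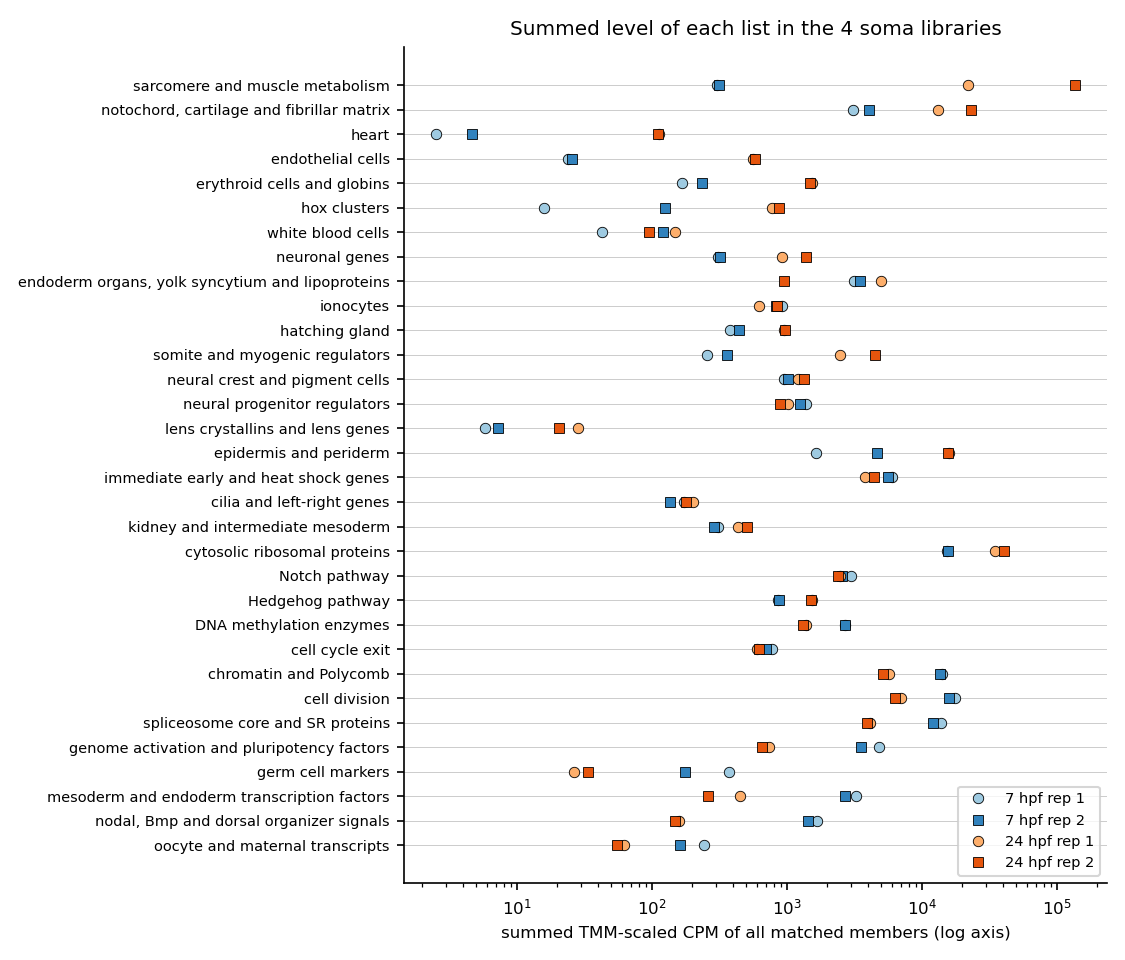
Summed level of all matched members of each list, in TMM-scaled CPM on a log axis, in the 4 soma libraries (circles replicate 1, squares replicate 2). The 24 hpf points lay close together for endothelial (566 and 584 CPM) and erythroid genes (1534 and 1500 CPM), and far apart for sarcomere genes (22173 and 136791 CPM) and for endoderm, yolk syncytium and lipoprotein genes (5010 and 949 CPM). The close erythroid sums held members that differed, with SPTB higher in replicate 2 (291 and 551 CPM). The median erythroid gene was higher in replicate 1 by 0.39 on the log2 scale, against -0.01 for endothelial genes.

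Kidney genes rose in 6 of 14 tested and fell in 1. CDH17, a cadherin of the zebrafish pronephros, went from 0.449 and 0 CPM to 44 and 86.5 CPM (8.02 ± 0.83, adjusted p = 0.000299), and the intermediate mesoderm factor OSR1 fell from 40.2 and 38.3 CPM to 6.69 and 7.89 CPM. Without soma 24 hpf replicate 2, 4 rose. Ciliary and left-right genes rose in 2 of 20 tested (10%, below the 23.2% of all tested genes) and fell in 2, which were lft1 and lft2. DNAH5, an outer arm dynein, rose from 5.01 and 12.9 CPM to 60.5 and 41.6 CPM (2.52 ± 0.48, adjusted p = 0.00376). The other rise, DNAH7, an inner arm dynein, lost its call without soma 24 hpf replicate 2 (adjusted p = 0.176), 7 hpf replicate 1 (adjusted p = 0.104) or 7 hpf replicate 2 (adjusted p = 0.0593), and the list had 1 rise without 7 hpf replicate 1. The master regulator FOXJ1 was not called (1.99 ± 0.86, adjusted p = 0.0924).

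Immediate early and heat shock genes, which can respond to handling of cells, rose in 10 of 24 tested (41.7%) and fell in 2. egr1 went from 1.27 and 1.77 CPM to 47.8 and 148 CPM (6.01 ± 0.89, adjusted p = 0.00122), and JUN from 3.44 and 1.12 CPM to 27 and 73.2 CPM. Both were higher in 24 hpf replicate 2, the library with the higher muscle sum. Without that library the count of rises was 6, as it was without soma 7 hpf replicate 2. HSPB1, a small heat shock protein, fell from 1573 and 1786 CPM to 52.9 and 94.4 CPM (-4.51 ± 0.44, adjusted p = 0.000248), and hsp70l measured at most 7.69 CPM. Its relative hsp70.3 was not called, with 32.9 and 10.3 CPM at 7 hpf and 26.7 and 120 CPM at 24 hpf. Both hsp70 genes had fractional counts. The part of cell sorting in these values was not tested.

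Germ cell markers gave a partial check of the sort. In soma, their 16 genes summed to 375 and 176 CPM at 7 hpf and 26.4 and 34 CPM at 24 hpf, and in PGCs to 5254 and 6781 CPM and then 728 and 561 CPM. NANOS3, DND1 and DAZL were at or below 1.37 CPM in every soma library. Other members were higher in soma at 7 hpf, such as TDRD6 (39.2 and 30.6 CPM) and PIWIL1 (34.5 and 8.95 CPM). The sums also held both CXCR4 paralogues, at 71.6 and 34.3 CPM and at 51 and 18.5 CPM in soma at 7 hpf. The part of carried-over germ cells in the soma values was not tested. In soma, 10 of 16 fell (62.5%) and 0 rose. DDX4, the Vasa helicase, fell from 70.4 and 24.6 CPM to 1.72 and 2.47 CPM (-4.5 ± 0.51, adjusted p = 0.000394), and TDRD9, a Tudor protein of the piRNA pathway, from 62 and 35.8 CPM to 0.728 and 1.78 CPM. The 7 hpf levels were higher in replicate 1, in which maternal transcripts were also higher.

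The change in soma was set against that in PGCs over the same interval, as the difference of the log2 fold changes. Of 19885 tested genes, 1 differed at the threshold (0.00503%), and 2994 passed an unadjusted p under 0.05. It was si:ch211-241j12.3, which measured 51.7 and 46.5 CPM in soma at 7 hpf and 24.9 and 26 CPM at 24 hpf. Its log2 fold change was -0.95 ± 0.22 in soma, where it was not called, and -6.75 in PGCs, a difference of 5.8 (adjusted p = 0.000442). The 24 hpf PGC libraries themselves held high sums for sarcomere genes, 90043 and 158782 CPM, and the part of somatic RNA in the PGC values was not tested. Another tool, DESeq2, called 785 genes for this difference, and without soma 7 hpf replicate 1 edgeR called 27.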

How the data were processed

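Cells had been sorted, and low-input stranded total RNA libraries prepared and sequenced in paired reads on a NovaSeq. The authors used Trim Galore on the reads, STAR for alignment to danRer10 and RSEM for quantification. The deposited expected counts come from RSEM, which splits ambiguous reads, so that some are not whole. Genes with such counts included HOXA3, hbae1.2 and he1.2, whose bounds on the fold change are less certain for it. The deposited TPM values, by the authors, are relative to transcript length and to the library's total, and the effective lengths, also deposited by the authors, are in bases. These data came from an additional lane. Merging with an earlier run, strand use in counting and the annotation release are not given in the sources used here, so antisense and overlapping genes are uncertain. All 24 columns were matched to samples by name, and 0 columns of other samples were present.

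Here expected counts were rounded and 92 spike-in rows, all at 0, removed. R 4.3.3 with edgeR 4.0.16 (filterByExpr, TMM, quasi-likelihood test) fitted all 8 libraries with 4 group means, which share 1 estimate of spread. p-values were adjusted over all 19885 tested genes. Effective lengths, after removal of each library's common shift, were tested with limma 3.58.1 for genes with at least 20 counts in every library, and called at an absolute log2 change of at least 0.2. In simulated data of 19885 genes, 200 were changed at a time. Of these, 73.5% were recovered at a log2 fold of 4 and 12.5% at 2. The real data had 33.1% of genes called, and the adjustment of p is less strict when more genes change. The share of calls missed in the real data was therefore not measured. Bounds written as at least N-fold use the mean of the stage against 3 counts, averaged over the 2 libraries at 0, and like all floors cover counting error only.

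The gene lists and members were chosen with earlier results of these data known. Of 737 list entries, 300 matched the reference table of gene names by symbol, 232 by the same symbol in capitals and 147 by the capital symbol without a paralogue suffix, and 58 were not matched, which widened the planned rule. The list of mitochondrially encoded genes matched 0 genes. Genes named were the 12 largest rises and falls with at least 20 CPM and no overlap between the stages. To these were added the 4 called members of each list with the largest change and at least 10 CPM. Members against the direction of their list, the highest TPM and the largest differences between the 24 hpf libraries were also named. So were genes called for length or interaction. Other list members named were chosen after their values were seen, as was the length of 500 bases for TPM. Some list members are not reported here.

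Alternatives were other scalings and count filters, DESeq2 1.42.0, limma-voom, length offsets, TPM with limma, other thresholds, a replicate block and leaving out each library.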

Additional observations from a re-analysis of the deposited data

Results flagged for a closer look

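The gene si:ch211-241j12.3 was singled out because its change from 7 to 24 hpf differed between soma and PGCs by a test of the difference itself, with a log2 difference of 5.8 (edgeR quasi-likelihood test, adjusted p = 0.000442). Its level in soma was lower at 24 hpf in both libraries (51.7 and 46.5 CPM against 24.9 and 26 CPM). With 2 libraries per group, no sample could be examined for standing far from the others of its group.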

How the results depend on the processing

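The count of 6588 called genes went to 4016 at a log2 fold change of at least 3, to 3380 with glmTreat against 1.5 and to 4044 with limma on log2(TPM + 1), where 55.2% of the calls were rises. It lay between 4662 and 6759 over the fits that left out 1 library. Across genes, the differences between replicates 1 and 2 of soma at 7 and at 24 hpf were not correlated (-0.00926). That single value does not settle whether replicates were paired. Pairing of soma with PGC libraries of the same stage was not tested. With a replicate block the count was 6102, of which 5958 were shared. The 4 soma libraries alone gave 5894, and with the block 4729. The median log2 fold change of all genes, 0.46, was 0.22 with upper-quartile factors, 0.6 and 0.58 with scaling on fewer genes, 0.3 without a count filter and 0.27 at a mean of at least 50 counts, and 0.02 and 0.04 on TPM with a pseudocount of 1 or 0.1, and 0.3 to 0.72 when a library was left out. The interaction count of 1 was 986 without a count filter, 785 with DESeq2, 37 and 19 on TPM, 1 with the replicate block, and 1 to 27 when a library was left out. The count of 3 lengths was 1 at a log2 change of 0.5, 0 in the 4 soma libraries and with the replicate block, and 0 to 62 when a library was left out, the highest being without soma 7 hpf replicate 1. The cause of these shifts was not tested.

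dmd turned direction under the length offset (-0.07) and on TPM (-0.35 and -0.36). The 173 called genes that were named by rule gave 3974 values under the alternatives. Of these, 3860 kept direction and call, 111 lost the call and 3 were those of dmd. Most of these genes were picked for a large change, which favours keeping the call. Genes named only after their values were seen, such as sox19a, were not in this count. Of 490 called list members, 384 were called without each soma library in turn. Of 1664 counts of list members, 1489 stayed within 1.5 times. Between scalings the median of the lens list alone among the lists turned sign.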
